A study of Mus musculus with 92 samples.

Results

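Of 38097 places in the mouse genome at which the cohesin subunit STAG1 was found in at least 1 of 5 cell types, 7315 (19.2%) were found in d4c7PGCLC and in none of the other 4. They were chosen from peak lists. A STAG1 site of a cell type was a merged interval overlapped by both of its wild-type STAG1 lists, the sites of the 5 cell types were merged, and the members were the merged intervals that held a d4c7PGCLC site and no site of another cell type. The members made up 20.9% of the 35018 STAG1 sites of d4c7PGCLC. The other 27703 were shared with at least 1 other cell type, and 5694 sites were found in all 5. The same rule gave 1755 sites for ESC, 723 for d2PGCLC, 128 for GSC and 80 for EpiLC.

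STAG1, STAG2, STAG3 and CTCF had been mapped by chromatin immunoprecipitation and sequencing (ChIP-seq), and the deposited lists of peaks were read here. Wild-type ESC (embryonic stem cells), EpiLC, which resemble the epiblast of the early embryo, and primordial germ cell-like cells (PGCLC) of 2 stages, d2PGCLC and d4c7PGCLC, all came from the line BDF1-2-1 BVSC, which carries a Blimp1-mVenus and a Stella-ECFP reporter. Both kinds of PGCLC had been sorted as positive for the Blimp1-mVenus reporter, ESC and EpiLC had been harvested unsorted. Wild-type germline stem cells (GSC) came from another line, AAG, which carries Acrosin-EGFP and beta-Actin-EGFP, and had been sorted as AAG-positive. Cell type and line therefore cannot be told apart for GSC. CTCF lists came from AAG GSC of the genotypes Stag3 KO, Stag1Stag2dKO (Stag3-only), Stag1Stag3dKO (Stag2-only) and Stag2Stag3dKO (Stag1-only). No CTCF list of the BVSC line and no CTCF list of wild-type cells was used here, so CTCF at the members was read in another cell type, line and genotype.

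Cohesin is a ring-shaped complex that extrudes chromatin loops and holds sister chromatids together. Each ring carries a STAG subunit, STAG1 or STAG2 in somatic and pluripotent cells, and STAG3 is best known from germ cells. CTCF, a zinc finger protein that binds a long DNA motif, halts cohesin and so sets many loop ends. PGCLC are made in culture from ESC through EpiLC and resemble the precursors of sperm and eggs, and GSC resemble the stem cells of the testis.

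The sequences below are promoters that a member covered in whole or in part. They were picked as given below and do not stand for the gene starts of the members in general. Each is the 250 bases before a RefSeq gene start (GRCm38.p6), written 5′ to 3′ on the gene's strand, and capitals mark a match to the CTCF core motif (CCA, 2 bases of any kind, AG, 2 bases of any kind, GGC) on either strand. The first 5 are the promoters whose member had the highest STAG1 fold enrichment. Sgpl1 encodes the enzyme that cleaves sphingosine phosphate, Atxn3 a deubiquitinase, Mrpl11 a protein of the mitochondrial ribosome, Irf9 a transcription factor of the interferon response and Zfp677 a zinc finger protein. Rec8, the kleisin subunit of meiotic cohesin, is shown as a promoter whose member had no CTCF peak. Mrpl34, another mitochondrial ribosomal protein, was chosen after its values were seen, as a promoter that holds the motif in the opposite direction.
Sgpl1, chr10:61147685-61147934, minus strand: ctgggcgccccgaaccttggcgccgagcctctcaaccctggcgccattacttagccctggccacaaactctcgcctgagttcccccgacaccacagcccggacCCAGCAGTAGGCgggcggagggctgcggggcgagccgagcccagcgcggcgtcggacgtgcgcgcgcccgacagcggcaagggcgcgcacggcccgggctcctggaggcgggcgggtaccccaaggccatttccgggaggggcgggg
Atxn3, chr12:101958244-101958493, minus strand: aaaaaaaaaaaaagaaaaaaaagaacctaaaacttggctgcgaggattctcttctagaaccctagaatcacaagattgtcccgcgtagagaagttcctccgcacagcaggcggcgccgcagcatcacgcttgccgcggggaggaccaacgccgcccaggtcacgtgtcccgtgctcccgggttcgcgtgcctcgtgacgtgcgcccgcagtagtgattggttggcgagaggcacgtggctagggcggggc
Mrpl11, chr19:4962056-4962305, plus strand: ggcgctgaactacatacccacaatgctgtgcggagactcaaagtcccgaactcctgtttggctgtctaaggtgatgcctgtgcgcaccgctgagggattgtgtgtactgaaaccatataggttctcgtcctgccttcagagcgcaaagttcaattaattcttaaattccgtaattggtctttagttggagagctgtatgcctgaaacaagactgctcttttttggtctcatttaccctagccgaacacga
Irf9, chr14:55603735-55603984, plus strand: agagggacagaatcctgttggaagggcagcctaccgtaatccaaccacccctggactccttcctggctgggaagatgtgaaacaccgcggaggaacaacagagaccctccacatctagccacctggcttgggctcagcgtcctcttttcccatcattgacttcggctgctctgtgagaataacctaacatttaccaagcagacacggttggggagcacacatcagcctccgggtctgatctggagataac
Zfp677, chr17:21383498-21383747, plus strand: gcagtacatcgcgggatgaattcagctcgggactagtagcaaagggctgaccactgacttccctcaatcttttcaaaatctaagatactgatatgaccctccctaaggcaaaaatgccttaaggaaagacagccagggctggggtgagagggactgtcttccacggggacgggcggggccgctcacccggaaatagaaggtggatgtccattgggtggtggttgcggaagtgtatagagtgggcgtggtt
Rec8, chr14:55617916-55618165, plus strand: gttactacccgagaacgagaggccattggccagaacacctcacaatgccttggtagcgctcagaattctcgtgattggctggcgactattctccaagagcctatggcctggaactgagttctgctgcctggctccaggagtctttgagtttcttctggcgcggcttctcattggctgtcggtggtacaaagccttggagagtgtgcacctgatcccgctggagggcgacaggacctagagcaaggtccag
Mrpl34, chr8:71464676-71464925, plus strand: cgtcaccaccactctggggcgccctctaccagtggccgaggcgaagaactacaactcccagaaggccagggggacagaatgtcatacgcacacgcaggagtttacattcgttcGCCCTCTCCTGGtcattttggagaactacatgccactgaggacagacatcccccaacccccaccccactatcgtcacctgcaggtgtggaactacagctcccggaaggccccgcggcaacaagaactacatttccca

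All 7 promoters lay at a member, and the members of the 6 other than Rec8 had a CTCF peak in all 4 GSC genotypes. Of all 291 promoter windows with a member, 161 had one at such a CTCF site. Each of the 7 members also had a STAG1 peak in 1 or 2 lists of other cell types, while 33.9% of all members had none. The member at Sgpl1 ran from 61147691 to 61148210, with STAG1 fold enrichments of 14.1 and 11.7 in the 2 d4c7PGCLC lists. Fold enrichment is the authors' value for a peak, its height over the local background as a linear ratio. The Sgpl1 promoter held 1 CTCF core match in 244 bases that lay in the member. At Atxn3, Mrpl11, Irf9 and Zfp677 no CTCF core match lay in the printed bases, which says only that these letters are not in this window. Of the Irf9 promoter 17 bases lay in the member, which continued into the gene. Rec8's member covered 182 of the printed bases and the gene start, with STAG1 fold enrichments of 7.28 and 5.64. At Mrpl34 the fold enrichments were 10.9 and 8.93.

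The members at these 7 promoters also held STAG2 peaks in every cell type of the BVSC line. At Sgpl1 STAG2 peaks were called in all 10 BVSC lists, with fold enrichments of 15.9 and 15.6 in ESC, 21.7 and 19.7 in EpiLC, 10.6, 6.96 and 12.6 in d2PGCLC and 9, 8.71 and 11.9 in d4c7PGCLC. In GSC, 1 of 3 lists had a STAG2 peak at Sgpl1. Atxn3 had the highest STAG2 values of the 7 in ESC, 51.8 and 58.7, and 33.3, 19.7 and 20.3 in d4c7PGCLC. At Rec8 the STAG2 fold enrichments were 13.7 and 14.6 in ESC, 8.08 and 12.2 in EpiLC, 4.05 and 4.53 in 2 of 3 d2PGCLC lists, and 5.82, 6.42 and 5.51 in d4c7PGCLC, with no peak in GSC. All of these members were thus places of STAG2 before the d4c7PGCLC stage. Of all members 93.3%, and of all STAG1 sites 98%, had STAG2 in at least 2 lists of ESC, EpiLC or d2PGCLC. STAG2 in at least 2 lists of every BVSC cell type was less frequent at members than at all STAG1 sites. It was present at 33% of members without and 5.28% with STAG2 in at least 2 GSC lists, against 39.2% and 33.9%.

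In the 2 d4c7PGCLC lists that defined them the members were weak and narrow STAG1 peaks. Since the rule used the STAG1 lists, STAG1 values are given here as a description and without a test. The lists held 38491 and 42013 peaks. Fold enrichment at the members ran from 1.86 through a median of 5.57 to 23.8 in list 1, and from 1.63 through 5.84 to 25.5 in list 2. The medians at shared sites were 11.8 and 12.8, and those of all peaks in the lists 8.78 and 8.76. In list 1, 6730 members (92.0%) lay below the list's own median, and in list 2, 6393 (87.4%). The median −log10 q was 11.8 and 14.0 at members and 44.2 and 55.3 at shared sites. Members had a median width of 317 bp, shared sites 537 bp, and sites of all 5 cell types 682 bp.

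**Figure D1:**
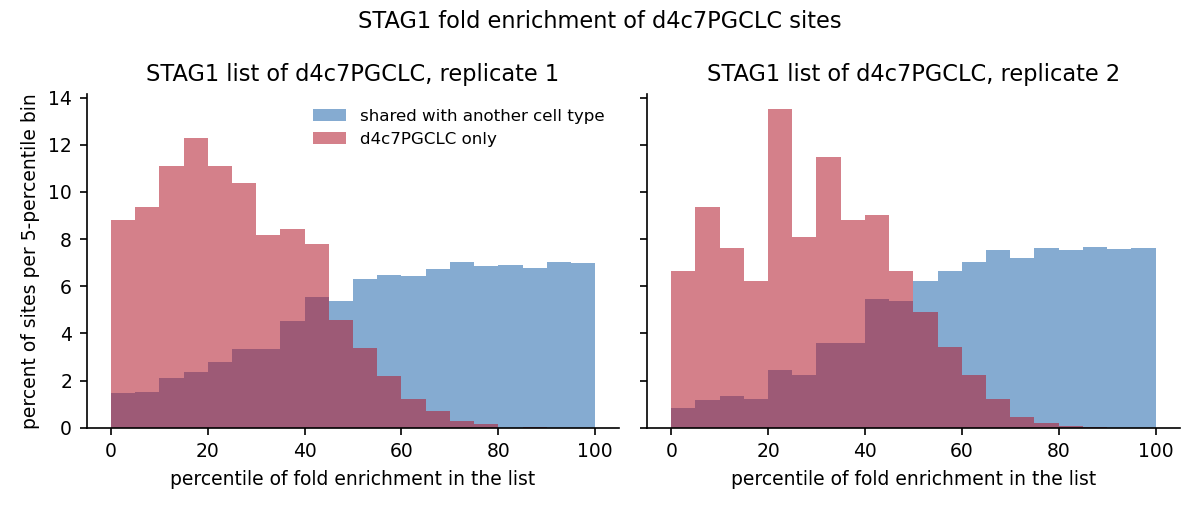
Percent of sites (vertical axis) in each 5-percentile bin of STAG1 fold enrichment (horizontal axis), for the 2 d4c7PGCLC lists, with 7315 d4c7PGCLC-only sites in red and 27703 shared sites in blue. The members gather in the lower part of each list, with median percentiles of 24.1 and 28.5 against 63.9 and 66.7 for shared sites.

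Many members also had a STAG1 peak in at least 1 list of another cell type. Absence of a site in another cell type means that no interval there was called in both of its lists. ESC list 1, with 39055 peaks, had a peak at 3820 members (52.2%), while ESC list 2, with 29222 peaks, had one at 277 (3.79%). EpiLC lists 1 and 2 had a peak at 1.04% and 15.9% of the members, d2PGCLC lists at 2.71% and 17.3%, and GSC lists at 1.56% and 3.17%. The longer list of each pair held more members in all 4 cell types. No other STAG1 list had a peak at 2477 members (33.9%), 1 had a peak at 2939, 2 at 1503, 3 at 380, 4 at 15 and 5 at 1. The name d4c7PGCLC only thus stands for the rule, and not for places without STAG1 elsewhere.

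**Figure D2:**
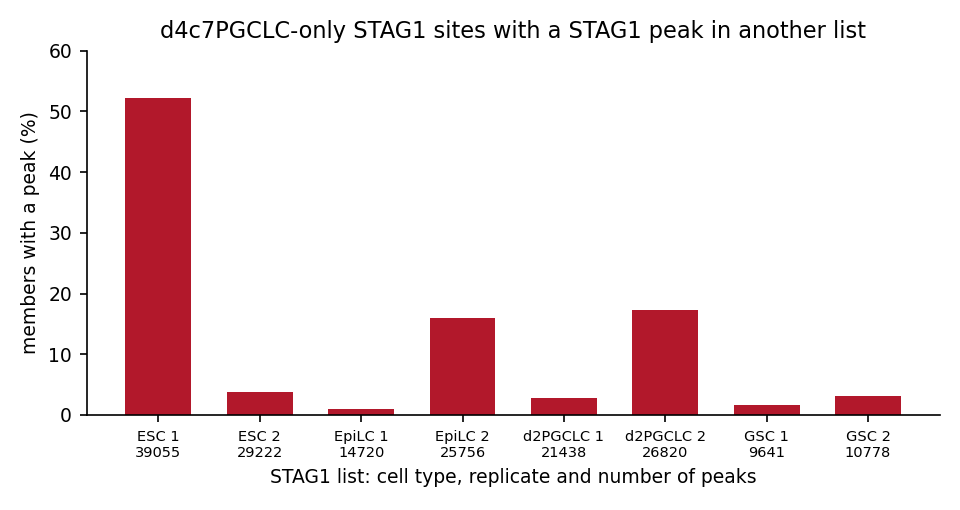
Percent of the 7315 members (vertical axis) with a STAG1 peak in each of the 8 lists of the other cell types (horizontal axis, with the number of peaks in the list). ESC list 1 stands above the rest at 52.2%, and the other 7 lists lie between 1.04% and 17.3%.

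Just inside the rule were 2124 members whose single other STAG1 peak was in ESC list 1. Their median fold enrichments were 5.78 and 6.06 in d4c7PGCLC and 5.39 in ESC list 1. Just outside it were 1972 sites of d4c7PGCLC and ESC that had a peak in both ESC lists and in no list of another cell type, with medians of 6.54 and 7.07 in d4c7PGCLC and 7.21 and 5.32 in ESC. In what the rule did not use, the shares were also somewhat lower inside the rule than outside it. CTCF in all 4 genotypes was present at 53.1% of the former and 59.1% of the latter, and a STAG2 site of d4c7PGCLC at 49.1% and 58.3%. Members with no other STAG1 peak had lower shares, 34.7% for CTCF and 42.7% for STAG2 of d4c7PGCLC.

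Which places were members depended on the length of the lists. With every STAG1 list cut to its 9641 peaks of highest fold enrichment, the length of the shortest, the rule gave 519 sites, of which 6 overlapped one of the 7315. Without GSC and with lists of 14720 peaks it gave 1139 sites, of which 63 did. A d4c7PGCLC-only site of the deposited lists and one of equal-length lists are thus mostly different places, and both are given below where they differ. Leaving out ESC list 2, so that the peaks of list 1 alone were ESC sites, left 3496 members. Leaving out d4c7PGCLC list 1 gave 12924. The sequencing depth behind the lists is unknown, and its part in the lengths was not tested.

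STAG2, which the rule did not use, was called at most of the members in ESC and EpiLC, at lower shares than at STAG1 sites in general. A STAG2 peak was present at 82.0% ± 0.628 (SD, n = 2 lists) of the members in ESC, 90.1% ± 0.599 (n = 2) in EpiLC, 57.1% ± 15.4 (n = 3) in d2PGCLC, 53.0% ± 16.3 (n = 3) in d4c7PGCLC and 10.8% ± 5.11 (n = 3) in GSC. The shares in single lists were 82.4% and 81.5% in ESC, 90.5% and 89.7% in EpiLC, 69.5%, 39.9% and 61.8% in d2PGCLC, 71.7%, 41.7% and 45.5% in d4c7PGCLC, and 13%, 4.98% and 14.5% in GSC. Over all 38097 STAG1 sites the same lists gave 94.8% and 94.6% in ESC, 97.1% and 96.8% in EpiLC, 88.7%, 73.7% and 85.7% in d2PGCLC, 86.7%, 71.7% and 73.9% in d4c7PGCLC, and 41.6%, 30.4% and 40.2% in GSC, each above the members' share. The highest shares at members were thus those of EpiLC and then ESC, whose lists did not overlap. The lists of d2PGCLC and d4c7PGCLC overlapped, and every GSC list lay below every other. STAG2 lists ranged from 13698 peaks in GSC to 84904 in EpiLC, and within each of d2PGCLC, d4c7PGCLC and GSC the shortest list gave the lowest share.

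At the d4c7PGCLC stage, at which STAG1 was called at these places, the mean STAG2 share lay between those of d2PGCLC and GSC. The mean share at members was 53.0% in the 3 d4c7PGCLC lists and 54.8% ± 33.9 (SD) in the 10 lists of the other cell types, a difference of -1.80 percentage points (2-sided exact permutation test over lists, p = 0.937, adjusted p = 1 over 5 tests by Benjamini-Hochberg). The 10 lists come from several cell types, with means from 10.8% in GSC to 90.1% in EpiLC. Their SD and this p thus hold differences between cell types as well as between lists of 1 cell type. The smallest p that this design allows is 0.0035. Within the BVSC line the difference was -20.6 points (exact permutation p = 0.133). Against d2PGCLC, the stage before, the share differed by 4.07 points (higher in d2PGCLC, exact permutation p = 1), in a design that cannot go below 0.1.

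With lists of equal length the direction was the opposite. At the 519 sites that the rule gave from equal-length lists, with STAG2 lists of 13698 peaks each, the d4c7PGCLC lists had a STAG2 peak at 85.2%, 79.4% and 81.1%, above every list of another cell type. ESC lists had one at 68.4% and 69.2%, EpiLC lists at 60.1% and 60.5%, d2PGCLC lists at 67.1%, 64.2% and 68.6%, and GSC lists at 32.9%, 27.9% and 27.4%. The difference between d4c7PGCLC and the rest was 27.3 points (exact permutation p = 0.0175, not adjusted). These sites were chosen for STAG1 among the highest peaks of d4c7PGCLC and of no other cell type. That choice can itself favour STAG2 of d4c7PGCLC, and its part was not tested. Without GSC, at lists of 35799 peaks and 1139 sites, the difference was 4.47 points (exact permutation p = 0.108). There d4c7PGCLC stood at 96.9% ± 1.60 (n = 3), ESC at 95.1% and EpiLC at 95.4% (n = 2 each) and d2PGCLC at 88.8% ± 3.44 (n = 3).

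**Figure D3:**
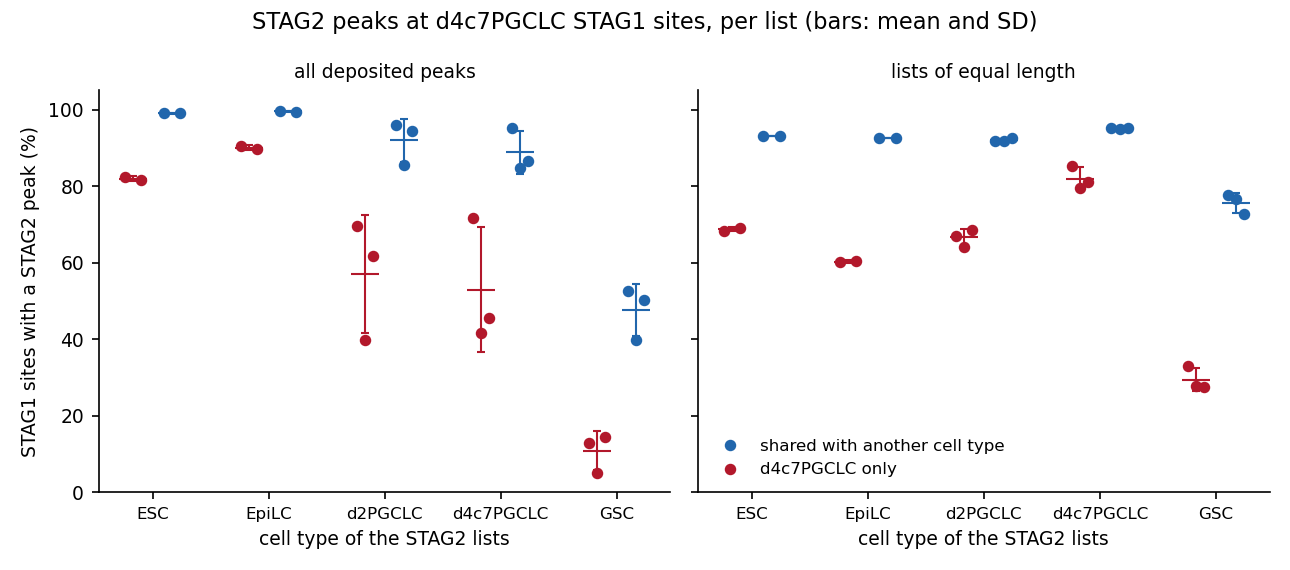
Percent of d4c7PGCLC STAG1 sites with a STAG2 peak (vertical axis) in each STAG2 list by cell type (horizontal axis), for d4c7PGCLC-only sites (red) and shared sites (blue), with all deposited peaks (left) and with STAG1 and STAG2 lists of equal length (right). Points are lists, and bars are the mean and SD. The d4c7PGCLC lists overlap in range with those of d2PGCLC on the left, and lie above every other cell type on the right for the 519 d4c7PGCLC-only sites.

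Members carried STAG2 less often than the other STAG1 sites of d4c7PGCLC in every list. Averaged over the 13 lists, a STAG2 peak was present at 54.4% of the members and 83.3% of the shared sites, a difference of -28.9 points that was negative in 13 of 13 lists (exact sign-flip permutation test paired by list, p = 0.000244, adjusted p = 0.00122, the smallest p that the signs allow being 0.000244). All 13 lists were read at the same sites and several came from the same cell type, so this p treats lists as independent that are not. By the rule, shared sites had a STAG1 site in another cell type and members had none. That choice can itself lower STAG2 at members in the lists of the other cell types, and its part was not tested. In the d4c7PGCLC lists the difference was -23.5, -43 and -41.2 points. Within the BVSC line the difference was -26.5 points (exact permutation p = 0.00195). With GSC left out and the remaining lists cut to equal length it was -5.66 points (exact permutation p = 0.00195). With the deposited lists it was smallest in EpiLC, -9.03 and -9.79 points, and ran from -16.6 and -17.4 in ESC to -45.7 in 1 list of d2PGCLC. Relative to shared sites the d4c7PGCLC lists differed from the rest by -9.09 points, -35.9 against -26.8 (exact permutation p = 0.287, adjusted p = 0.717). With equal-length lists this last difference was 19.6 points (exact permutation p = 0.00699, not adjusted). The members were also the weaker STAG1 peaks, as given above, and the part of peak strength in these differences was not tested.

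The same holds when a STAG2 site, a place with a peak in at least 2 lists of a cell type, is read instead of single lists. A STAG2 site was present at 5614 members (76.7%) in ESC, where 93.1% of all 38097 STAG1 sites had one, and at 6385 (87.3%) in EpiLC, against 96.1%. In d2PGCLC 4370 members (59.7%) had one against 84.7% of all sites, in d4c7PGCLC 3765 (51.5%) against 77.5%, and in GSC 741 (10.1%) against 37.3%. All 5 shares were below those of STAG1 sites in general.

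The members held many combinations of STAG2 sites, of which some are given here. Calls depend on list length, so a combination need not be a change over time. The most frequent was a STAG2 site in ESC, EpiLC, d2PGCLC and d4c7PGCLC and none in GSC, at 2411 members (33.0%, against 39.2% of all STAG1 sites). At 977 members (13.4%, against 8.44% of all STAG1 sites) the STAG2 site was present in ESC, EpiLC and d2PGCLC, at 886 (12.1%, against 5.64%) in ESC and EpiLC and at 593 (8.11%, against 2.1%) in EpiLC alone, with none in d4c7PGCLC. In ESC, EpiLC and d4c7PGCLC, and not in d2PGCLC or GSC, 407 members had a STAG2 site (5.56%, against 2.05%). A further 386 had one in all 5 cell types (5.28%, against 33.9%), 68 in d4c7PGCLC alone (0.93%, against 0.184%), and 400 in none (5.47%, against 1.62%). In all, 6822 members (93.3%, against 98% of all STAG1 sites) had a STAG2 site in ESC, EpiLC or d2PGCLC. A STAG1 or STAG2 peak was present in some list of another cell type at 7150 members (97.7%, against 99.6% of all STAG1 sites), which leaves 165 (2.26%) at which neither protein was called outside d4c7PGCLC.

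In d4c7PGCLC itself, STAG1 was called without STAG2 at many members. All 3 STAG2 lists of that stage had a peak at 2284 members (31.2%), 2 lists at 1481, 1 list at 1813 and none at 1737 (23.7%). At shared sites all 3 lists had a peak at 80.5% and none at 3.6%. No d4c7PGCLC STAG2 site was present at 3550 members (48.5%), of which 3130 had one in ESC, EpiLC or d2PGCLC. Of all STAG1 sites 8556 (22.5%) had no d4c7PGCLC STAG2 site, and 7876 of these had one in ESC, EpiLC or d2PGCLC. An earlier STAG2 site at such places was thus not particular to the members. Of the 6419 STAG1 sites of d4c7PGCLC without a STAG2 site of that stage, 55.3% were members, although members were 20.9% of all its STAG1 sites. The 3 STAG2 lists of d4c7PGCLC held 53988, 35799 and 37236 peaks, fewer than the lists of ESC and EpiLC, and a place without a called peak may still carry the protein.

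The 10 members of highest STAG1 fold enrichment were, with the exception of that near Dlat, STAG2 sites of every BVSC cell type. Fold enrichments of different lists are not on 1 scale, so the order of values between cell types at a place is a description. The first, between 123992491 and 123993077 on chromosome 8, lay 3233 bp outside Taf5l, which encodes a subunit of SAGA-type histone acetylase complexes. Its STAG1 fold enrichments were 21.5 and 21.6, and its STAG2 values 27.9 and 25.9 in ESC, 18.4 and 20.4 in EpiLC, 28.8, 17.8 and 21.3 in d2PGCLC and 20.9, 11.5 and 17.7 in d4c7PGCLC. No STAG2 peak was called there in GSC and no CTCF peak in any genotype. The next lay 44172 bp from Fancf, a gene of the Fanconi anaemia DNA repair complex, with STAG1 at 23.8 and 19.2 and STAG2 highest in EpiLC at 50.0 and 51.1.

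The other 8 of the first 10 had as nearest gene Otos, an inner ear gene 59114 bp away, Cntnap5b, a neuronal cell adhesion gene 396621 bp away, and Dlat, a subunit gene of pyruvate dehydrogenase 1101 bp away, or lay within Mthfd1 (folate metabolism), Cmtm8 (a membrane protein), Kif1a (a kinesin of axonal transport), Trerf1 (a zinc finger transcription regulator) and Uaca (a coiled-coil protein). STAG1 fold enrichments of the 10 ran from 14.3 to 25.5. All 10 had STAG2 peaks in all 3 lists of d2PGCLC and of d4c7PGCLC and in both EpiLC lists. At Dlat STAG2 was 3.75 in 1 ESC list and not called in the other, 9.70 and 12.2 in EpiLC, and 13.3, 17.4 and 13.9 in d4c7PGCLC, so that its d4c7PGCLC values were the highest there. At Cntnap5b the EpiLC values stood out, 56.6 and 59.3, beside 10.7, 10.1 and 10.4 in d4c7PGCLC. CTCF was called in all 4 genotypes at 6 of the 10.

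Of the 105 members with a STAG2 peak in all 13 lists, the 5 of highest rank lay in Kif1a, Trerf1, Uaca, Cdyl2, a chromodomain protein gene, and Acap3, an ARF GTPase activator gene, and all 5 had CTCF in all 4 genotypes. At Kif1a STAG1 was 16.1 and 16.9, and STAG2 was 39.3 and 34.2 in ESC, 31.4, 23.8 and 17.1 in d4c7PGCLC and 18.2, 10.4 and 15.3 in GSC. The share of members with STAG2 in all 13 lists was 1.44%, against 33.8% of shared sites. Of all 105, 75 (71.4%) had CTCF in all 4 genotypes.

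At 12 members (0.164%, against 0.0315% of all STAG1 sites) STAG2 was called in all 3 d4c7PGCLC lists and in none of the other 10. No STAG1 peak was called elsewhere at the 5 of highest rank. These 5 lay outside genes. That near Nck2, a signalling adaptor gene, lay 13203 bp from the gene (chr1:43431911-43432280) and had STAG1 at 6.64 and 5.26 and STAG2 at 12.3, 11.5 and 8.36. Near Ice1, a gene of the little elongation complex for small nuclear RNA transcription, STAG1 was 5.78 and 4.87 and STAG2 12.8, 8.72 and 5.80. The others lay nearest to Dld, which like Dlat encodes a subunit of pyruvate dehydrogenase (18296 bp away), to Smim23, a small membrane protein gene (44559 bp away), and to E330034G19Rik (48416 bp away), the 1 of these 5 with CTCF in all 4 genotypes. Of all 12, 1 had CTCF in all 4 genotypes (8.33%).

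At the other end, 115 members (1.57%) had no STAG2 peak in any of the 13 lists, against 0.643% of all STAG1 sites. The strongest lay 19330 bp from Smyd2, a lysine methyltransferase gene, with STAG1 at 16.4 and 13.4, and the next 80241 bp from Vrk1, a nuclear kinase gene, with STAG1 at 13.2 in both lists. Neither had a CTCF peak. Those with Fcnb, a ficolin gene 10787 bp away, and Sem1, a proteasome subunit gene 158778 bp away, as nearest gene had STAG1 between 6.64 and 7.49 and no CTCF, and that in Hsh2d, an adaptor gene of lymphocytes, had STAG1 at 6.64 and 7.4 with CTCF in all 4 genotypes. Of the 115, 27.8% had CTCF in all 4 genotypes.

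A CTCF site called in all 4 GSC genotypes was present at 3609 members (49.3%), against 73.5% of all STAG1 sites, 83.6% of shared d4c7PGCLC sites and 99.9% of sites of all 5 cell types. Another 928 members had CTCF in 1 to 3 genotypes, and 2778 (38.0%) had none, against 17.5% of all STAG1 sites. The shares in the single genotypes were 58.4% in Stag3 KO, 55.1% in Stag1Stag2dKO, 53.6% in Stag1Stag3dKO and 55.0% in Stag2Stag3dKO. CTCF had been called on pooled replicates, 1 list a genotype, so these values have no replicate error and no test. Sites of ESC only had CTCF in all 4 genotypes at 43.8%, those of d2PGCLC only at 19.9% and those of GSC only at 86.7%.

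**Figure D4:**
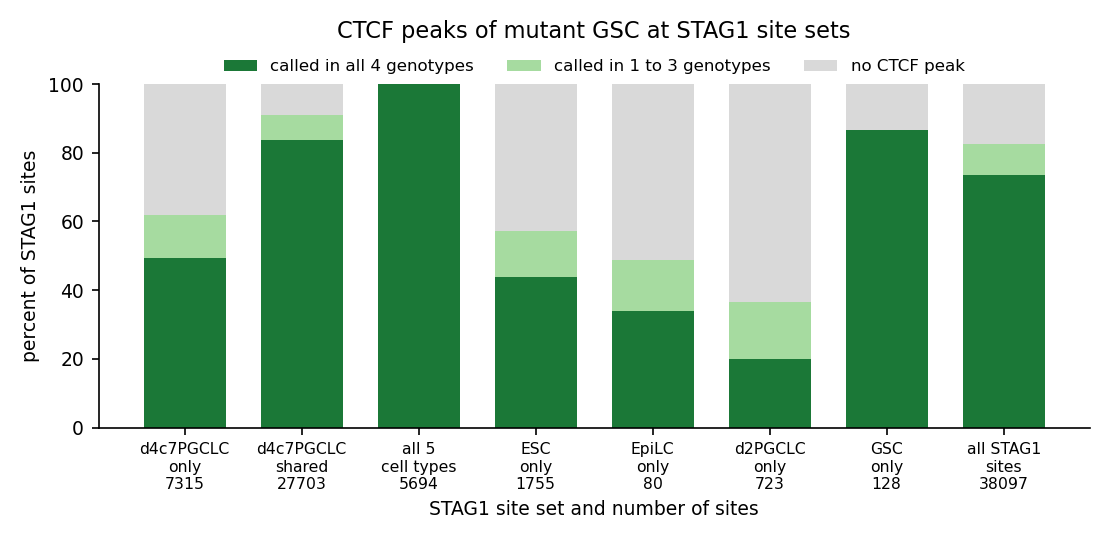
Percent of STAG1 sites (vertical axis) with a CTCF peak in all 4 mutant GSC genotypes, in 1 to 3 of them or in none, for each site set (horizontal axis, with its number of sites). The d4c7PGCLC-only sites, at 49.3%, stand below the shared d4c7PGCLC sites, at 83.6%, and above the d2PGCLC-only sites, at 19.9%.

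Where a member lay at CTCF, the median distance between the STAG1 and the CTCF summit was near that at shared sites. It was 57 or 58 bp in the 4 genotypes, against 59 bp at shared sites. Within 100 bp lay 76.5% to 77.7% at members, against 72.4% to 73.3% at shared sites. Distances were read only at sites that overlapped a CTCF peak, and members were narrower, with a median of 317 bp against 537 bp. Narrow sites leave less room for distance, so these values cannot show equal placement. The CTCF peaks themselves were weaker, with median percentiles of fold enrichment between 48.0 and 53.3 in the 4 lists against 63.1 to 66.4 at shared sites. The share with CTCF depended on the list lengths. At the 519 sites of equal-length lists it was 88.4% and at the 1139 sites of equal-length lists without GSC 85.7%, and at the 2477 members with no STAG1 peak in any other list it was 34.7%.

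In ESC, d2PGCLC and d4c7PGCLC the share of members with a STAG2 site differed by at most a few points between members with and without CTCF, and in EpiLC and GSC it was lower without CTCF. In ESC 75.2% of members without any CTCF peak and 76.9% of members with CTCF in all 4 genotypes had a STAG2 site, in d2PGCLC 58.2% and 58.4%, and in d4c7PGCLC 49.8% and 51.9%. EpiLC shares were 79.2% and 92.0%. In GSC, the line in which CTCF was read, they were 3.42% and 17.3%. These shares are descriptions without a test.

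STAG3, read in wild-type GSC, was called at few of the members. Its 3 lists had a peak at 4.09%, 16.1% and 16.4% of them (12.2% ± 7.04, SD, n = 3), and the 3 STAG2 lists of GSC at 10.8% ± 5.11 (exact permutation p = 0.6, adjusted p = 1, in a design that cannot go below 0.1). A STAG3 site, called in at least 2 lists, was present at 909 members (12.4%), against 31.4% of all STAG1 sites. Of these, 453 also had a GSC STAG2 site (6.19% of the members, against 26.3% of all STAG1 sites). Another 225 had no GSC STAG2 peak, 3.08% of the members and near the 2.4% of all STAG1 sites. Members with CTCF in all 4 genotypes had STAG3 at 5.60%, 24.5% and 25.1% in the 3 lists, and those without CTCF at 2.74%, 8.24% and 8.03%. The lowest STAG3 list was also the shortest, with 12832 peaks against 38631 and 39681.

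Members were spread over the genome much as STAG1 sites in general. Within 2500 bp of an end of a protein-coding gene lay 1285 members (17.6%, against 19.1% of all STAG1 sites and 19.3% of shared sites), within 2500 bp of a gene start 745 (10.2%, against 10.2%), in a gene body 51.8% and in neither 41.7%. The members without CTCF but with a d4c7PGCLC STAG2 site, 1383 in all, lay near a gene start at 13.4%. From the nearest shared site the members lay at a median of 22.3 kb, and shared sites lay 15.6 kb from each other. Their share of the d4c7PGCLC STAG1 sites ran from 18.5% on chromosome 11 to 27% on chromosome X (206 of 764), and both sites on chromosome Y were members.

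The 291 promoter windows with a member, from 250 bp before to 50 bp after the start, belonged to 271 genes and were GC-rich. Their median GC content was 62.3% and their median number of CpG dinucleotides 23, against 56.3% and 13 over the 21263 promoter windows of all protein-coding genes. Promoters at shared sites had 62.7% and 22. The CTCF core motif, searched on both strands, was present in 22 of the 291 (7.56%, against 2.34% of all promoters and 11.1% of those at a shared site), in 10.6% of those whose member had CTCF in all 4 genotypes and in 3.03% of those whose member had no CTCF. The AP-2 motif GCCNNNGGC, which the PGC factor TFAP2C can bind, was present in 26.1% against 19.9% of all promoters and 25.6% of those at a shared site, and the GC box GGGCGG in 70.4% against 46.2% and 62.6%. The OCT motif ATGCAAAT was present in 1.37% against 1.66%, the E-box CACGTG in 8.59% against 7.84%, and the box CCAAT in 33.3% against 38.2%. The GC box and the AP-2 motif can overlap in GC-rich sequence, and a match is a description and not a binding site.

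At gene ends, members touched 1469 of 21887 protein-coding genes (6.71%), and the gene lists are read against that share. Among 16 primordial germ cell genes 3 had a member within 2500 bp of an end (18.8%), namely Prdm1, which encodes the repressor BLIMP1 that starts the germ cell programme, Dppa3, which encodes STELLA, a protector of DNA methylation, and Nanos3, an RNA-binding protein that germ cells need to survive. A shared site lay at 56.2% of the 16 genes, against 24.3% of all genes, so shared sites were also more frequent at this list. None of the members at the 3 genes lay at CTCF. At Nanos3 STAG1 was 8.99 and 4.12, and STAG2 was called in every BVSC cell type, at 5.48 and 5.60 in ESC and 7.45 and 5.80 in 2 of 3 d4c7PGCLC lists.

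At Dppa3 3 members lay within 2500 bp, with STAG1 between 1.86 and 4.78. All 3 had STAG2 peaks in all 3 d4c7PGCLC lists, at 7.84, 7.71 and 5.76 at the first of them, and in no list of d2PGCLC or GSC. The first also had STAG2 at 4.39 and 4.58 in ESC and a peak in both EpiLC lists, the lower at 2.16, and the second at 2.42 in 1 ESC list. At Prdm1 2 members lay at an annotated end, with STAG1 between 2.90 and 3.64 and STAG2 in all 10 BVSC lists. The first had STAG2 at 3.95 and 3.29 in ESC, 11 and 8.83 in EpiLC, 6.61, 5.15 and 4.74 in d2PGCLC and 4.1, 4.09 and 3.67 in d4c7PGCLC, so that STAG2 was highest in EpiLC. In their lists these STAG1 peaks at Dppa3 and Prdm1 reached percentiles of at most 15.1.

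Both Prdm1 and Dppa3 are also the genes after which the 2 reporters of the BVSC line are named, Blimp1-mVenus and Stella-ECFP. The surroundings of the 2 genes were looked at after their values were seen. Within 100 kb of Prdm1 lay 10 members, with fold enrichments between 2.02 and 6.26 and no CTCF peak, and within 100 kb of Dppa3 lay 9, between 1.63 and 9.85. Of the 24 members with a fold enrichment below 3.5 in both lists, 7 lay within 100 kb of Prdm1 and 3 within 100 kb of Dppa3. The median fold enrichment of the peaks around Prdm1 was below the list's own median in 18 of 18 BVSC lists of STAG1 and STAG2 and in 1 of 5 GSC lists, which come from the line without these reporters. Around Dppa3 it was so in 11 of 18 BVSC lists and 2 of 5 GSC lists. BVSC lists had 3 to 28 peaks around Prdm1 and GSC lists 1 or 2. The part of the reporters in these calls was not tested, and the members at both genes are to be read with these values.

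**Figure D5:**
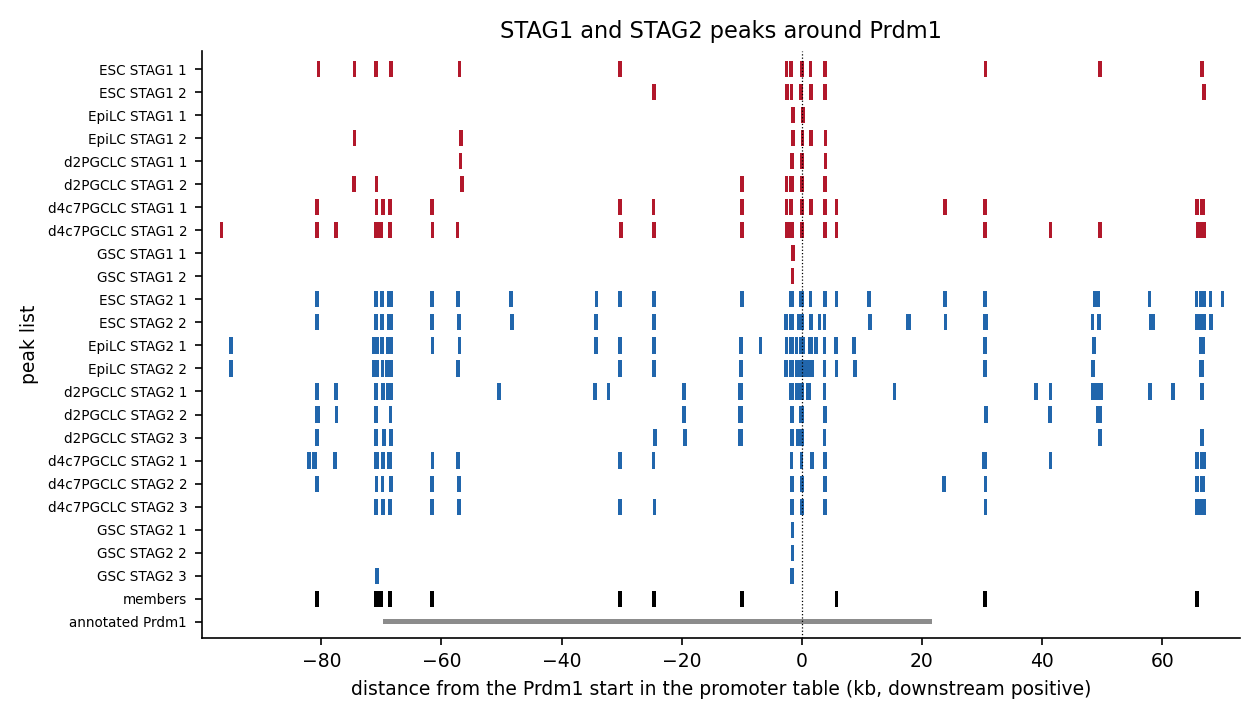
STAG1 (red) and STAG2 (blue) peaks of each list (rows) around Prdm1, with the 10 members (black) and the annotated gene (grey), against the distance in kb from the gene start in the promoter table, downstream positive. Peaks are drawn at least 0.6 kb wide. The drawn peaks lie between -96.9 and 69.9 kb, and the GSC lists hold 1 or 2 of them.

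Signalling genes were read in the same way. Of 35 genes of BMP and NODAL signalling 6 had one (17.1%), the ligand genes Bmp4, which induces germ cells in the embryo, and Gdf3, the receptor genes Acvr2b, Bmpr1a and Bmpr1b, and Smad7, which encodes an inhibitor of the pathway. At Bmp4 STAG1 was 5.35 and 4.67, and STAG2 was 11.4 and 7.58 in ESC, 17.3 and 18.3 in EpiLC, 13, 15.5 and 20.7 in d2PGCLC and 6.75, 7.34 and 10.2 in d4c7PGCLC, with none in GSC and no CTCF. Smad7 had 3 members, with STAG1 between 3.26 and 6.05 and STAG2 in all 10 BVSC lists at each. Of the 2 members at Gdf3, which lies beside Dppa3, the one with STAG1 at 2.17 and 1.63, the latter the lowest of all members in list 2, was among those near Dppa3 above. At Bmpr1a STAG2 was not called in d4c7PGCLC. Shared sites lay at 34.3% of this list and 34.2% of the WNT list, against 24.3% of all genes.

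Of 38 genes of WNT signalling 6 had a member (15.8%), the receptor gene Fzd5, the ligand genes Wnt6 and Wnt5b, Dvl2 and Dvl3, which relay the signal in the cell, and Apc, part of the complex that degrades β-catenin. Fzd5 had 2, both at CTCF in all 4 genotypes. The nearer one to its start had STAG1 at 6.64 and 6.03 and STAG2 at 14.5 and 28.2 in ESC, 13.6 and 13.3 in EpiLC, 25.9, 18.3 and 15.5 in d2PGCLC and 16.1, 14.2 and 11.6 in d4c7PGCLC. Dvl2 had STAG2 highest in EpiLC, at 34.1 and 37.7, and at 10.9, 14.7 and 7.84 in d4c7PGCLC. At Wnt6, Apc and Wnt5b no STAG2 peak was called in d4c7PGCLC. At Apc STAG2 was called in ESC, at 5.58 and 4.98, and in EpiLC, at 6.58 and 6.56, and in no later stage.

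Of 21 genes of cohesin and CTCF 3 had a member (14.3%), Rec8, given with its promoter above, Sgo1, which protects centromeric cohesin, and Ctcfl, the germline paralogue of CTCF. At Sgo1 STAG1 was 4.28 and 4.38 and STAG2 was called in all 10 BVSC lists and in 2 of 3 GSC lists. At Ctcfl STAG2 was called in 1 list each of ESC, EpiLC and d2PGCLC and in none of d4c7PGCLC. Of 21 meiotic genes 2 had one (9.52%), Rec8 again and Dmc1, which encodes a recombinase of meiosis, where STAG2 was highest in EpiLC at 18.4 and 15.6 and was 3.30 in 1 d4c7PGCLC list. Of 20 germline genes whose activation depends on DNA demethylation 1 had a member (5.00%), Tex19.1, with STAG1 at 5.21 and 6.22, CTCF in all 4 genotypes and no STAG2 peak in d2PGCLC, d4c7PGCLC or GSC. Shared sites lay at 28.6% of the cohesin and CTCF list, 23.8% of the meiotic and 10% of the germline list, against 24.3% of all genes.

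Of 22 imprinted genes 3 had a member (13.6%). Peg3, a paternally expressed zinc finger gene, had STAG1 at 6.96 and 8.76 and STAG2 at 10.3 and 17.8 in ESC, 26.6 and 26.9 in EpiLC and 3.88, 7.79 and 6.08 in d4c7PGCLC, with no CTCF. Its neighbour Zim1 had STAG1 at 6.21 and 9.13, and Mest STAG1 at 5.99 and 6.81, both with CTCF in all 4 genotypes. At all 3 genes STAG2 fold enrichment was higher in both EpiLC lists than in any list of d4c7PGCLC. A shared site lay at 18.2% of the 22 genes, against 24.3% of all genes.

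Of 16 naive pluripotency genes 1 had one (6.25%), which was Dppa3, of 13 formative pluripotency genes 1 (7.69%), and of 10 core pluripotency genes none, against 6.71% of all genes. The formative gene was Pou3f1, which encodes the POU factor OCT6, with STAG1 at 4.25 and 4.87 and STAG2 highest in EpiLC, at 33.0 and 37.7, against 4.99, 7.79 and 6.09 in d4c7PGCLC. A shared site lay at 25% of the naive, 30.8% of the formative and 60% of the core list, and at 24.3% of all genes.

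Lhx1, a homeobox gene that stands in both the spermatogonial and the mesendoderm list, was the 1 gene with a member of 19 (5.26%) and of 13 (7.69%). Of all genes 6.71% had a member. A shared site lay at 26.3% of the spermatogonial, 53.8% of the mesendoderm, 38.5% of the neural and 18.2% of the epigenetic modifier list. At Lhx1 STAG1 was 3.64 and 5.26, and STAG2 was called in all 7 lists of ESC, EpiLC and d2PGCLC and in 2 of d4c7PGCLC. Of 13 neural genes Olig2 (7.69%), which encodes a basic helix-loop-helix factor, had a member, with STAG2 in ESC and EpiLC and in no PGCLC list. Of 22 genes of epigenetic modifiers Setdb1 did (4.55%), which encodes a histone H3 lysine methyltransferase. STAG2 there was 49.4 and 35.4 in EpiLC, 36.4, 22.1 and 26.6 in d2PGCLC and 12.6, 7.89 and 10.4 in d4c7PGCLC. None of 14 fibroblast feeder genes, 11 Sertoli genes and 39 Hox genes had a member. With a member at only 6.71% of all genes, lists this short cannot show a lack of members. A shared site lay at 57.1%, 36.4% and 51.3% of these genes, against 24.3% of all genes.

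The clustered protocadherins, cell surface genes whose promoters are chosen through CTCF and cohesin, had a member at 10 of 57 genes (17.5%), from 8 distinct members since neighbouring genes share them. At 80.7% of these genes lay a shared site. The 8 genes of highest rank were Pcdhb15 and Pcdhb16 at the same member, Pcdhga1, Pcdhb22, Pcdhb10, Pcdha7, Pcdha6 and Pcdhb18, with STAG1 between 3.53 and 8.35 at these 8. At the member of Pcdhb15 and Pcdhb16 STAG2 was 24.5 and 25.5 in ESC, 29.0 and 30.2 in EpiLC and 18.6, 11.9 and 11.9 in d4c7PGCLC. Pcdhb10 and Pcdha6 had STAG2 in all 3 GSC lists, and Pcdhb22 in no list after EpiLC.

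Of 81 ribosomal protein genes 12 had a member (14.8%), and 29.6% had a shared site, against 24.3% of all genes. Among those of highest rank were Rpl38, Rpl28, Rps13, Rpl24, Rpl37 and Rps15, and some of these members lay nearer to a neighbouring gene, such as Pik3c2a beside Rps13. The first, 463 bp outside Rpl38, had STAG1 at 11 and 10.3 and STAG2 at 21.9 and 30.3 in ESC and 12.5, 15.6 and 8.71 in d4c7PGCLC. Of 67 histone genes H1f6 and H4c3 had 1 between them (2 genes, 2.99%), of 1110 olfactory receptor genes 14 did (1.26%), and of 367 zinc finger genes 28 (7.63%).

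Counted over whole gene bodies, the gene with the most members was Cdh13, a cadherin gene of 1185 kb, with 11 members beside 9 shared sites. Next came the overlapping protocadherin readthrough models Gm37013 and Gm38666 with 9 each and Gm38667 with 8, which share members and hold 44 to 46 shared sites each, and Camta1, a transcription activator gene of 802 kb, with 8 beside 17. Prdm1, with 7 beside 4 shared sites, is 91.4 kb long, and Rbms3, an RNA-binding protein gene with 7 beside 7, is 1057 kb long. Prdm1 was thus the shortest of these genes by far, at the locus described above. A member lay in the body or within 2500 bp of 3539 genes (16.2%), as a single one at 2787, and 205 genes had 3 or more.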

How the data were processed

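STAG1, STAG2, STAG3 and CTCF ChIP-seq peaks were read from 30 deposited lists. Other samples of the 92 in the series were not analysed here. The submitters' processing notes name Bowtie2 (2.3.4.1), an aligner, MACS2, a peak caller, cutadapt (1.9.1) and Trim Galore (0.4.1), deepTools (3.5.0), bedtools (2.29.2) and SAMtools (1.7), and the builds GRCm38.p3 and mm10. The MACS2 version, options and controls were not given in the sources used here. In narrowPeak layout, the authors' lists give a fold enrichment per peak (a linear ratio), −log10 of its p-value and q-value, and a score that was not used. No deposited peak had a −log10 q below 2. Per the labels and peak names, STAG lists were called per library and CTCF lists on pooled replicates. The p-values measure the spread between these lists, which holds differences between cell types where lists of several were pooled. The labels do not say whether replicates were separate cultures, so the spread within a cell type may be technical. Expression was not read, so the cell types were not checked against markers.

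Peaks overlapped when they shared at least 1 bp. A STAG2 or STAG3 site needed a peak in at least 2 lists of the cell type, and a CTCF site a merged interval called in all 4 genotypes. Shares were compared with 2-sided exact permutation tests over lists, never over sites, with Benjamini-Hochberg adjustment over 5 tests. The site rule and the tests were tested on simulated lists. Genes came from the RefSeq table of GRCm38.p6 (21887 protein-coding genes, of which 17492 had a start in the promoter table). Gene windows were 2500 bp. The members and the 22 gene lists (naive, core and formative pluripotency, primordial germ cell, demethylation-dependent germline, spermatogonial, meiotic, cohesin and CTCF, imprinted, epigenetic modifiers, mesendoderm, neural, WNT, BMP and NODAL, fibroblast feeder, Sertoli, Hox, clustered protocadherin, ribosomal protein, histone, olfactory receptor, zinc finger) were chosen with earlier results of these data known. Genes are named by rule: the 10 members of highest mean percentile rank of STAG1 fold enrichment, the 5 highest of each STAG2 class, list genes with a member at an end (the 8 highest of a list), the genes with the most members and the 5 highest promoters. Some genes that the rule names are not reported here. Analyses used Python 3.11.15, numpy 2.4.6 and pandas 2.3.3.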

Additional observations from a re-analysis of the deposited data

How the results depend on the processing

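The depth of the libraries is unknown here, and an uncalled place may still carry the protein. The difference in STAG2 share between members and shared sites kept its direction and its side of the threshold in all 31 alternatives (exact permutation p from 0.000244 to 0.00195), at -35.1 to -27.5 points when a list was left out, but at -5.66 points with GSC left out and lists of equal length. All alternatives chose members for having no STAG1 site in another cell type, and the part of that choice in the difference was not tested.

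The number of members was 2477 with no STAG1 peak allowed in any other list, 519 with lists of equal length, 1139 with GSC left out and lists of equal length, and 3496 to 12924 when a STAG1 list was left out. The first 3 settings gave a CTCF share of 34.7%, 88.4% and 85.7%, and a gene end share of 14.9%, 24.3% and 19.3%. Leaving out a STAG1 list gave 40.3% to 49.1% and 15.2% to 20%. CTCF called in any genotype gave 62.0%, and single genotypes 55.1%, 53.6%, 55.0% and 58.4%. A window of 1000 bp gave 10.8% and 871 genes.

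The other comparisons did not pass the threshold with the deposited lists, and their direction was not stable. The p-values of the alternative settings are not adjusted. The d4c7PGCLC STAG2 share against the other cell types was 1.48 points with no STAG1 peak elsewhere, 27.3 with equal length (exact permutation p = 0.0175), 4.47 with GSC left out and equal length, and -11.2 to 3.84 with a list left out. Relative to shared sites it was 19.6 (exact permutation p = 0.00699) and 4.29 under the 2 length settings, and -15.3 to -5.53 with a list left out. The d2PGCLC against d4c7PGCLC difference was -2.92, -15.3 and -8.14 under the first 3 settings, and -2.16 to 13.4 with a list left out. STAG3 against STAG2 in GSC was -19.4 with equal length and -1.53 to 5.46 with a list left out. Apart from the settings' own construction the cause was not tested. Reading the STAG2 lists of the BVSC line alone was chosen after seeing the data.

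With the replicate number as a block, which the labels do not tie to a shared culture, the differences were the same and the exact permutation p was 0.973, 0.267, 1 and 0.75, so no call changed. Same-numbered STAG2 lists of d2PGCLC and d4c7PGCLC deviated together with r = 0.20, 0.15 and -0.04 over sites, so the numbers were not taken to pair them.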
